A study of Homo sapiens with 12 samples.

Results

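The genes described here are 10 members of the early response of cells to a stimulus: the FOS family genes FOS, FOSB, FOSL1 and FOSL2, the JUN family genes JUN, JUNB and JUND, and EGR1, IER2 and IER3. They were chosen by name, whatever their values, and all 10 were found in both tables, which list 29657 genes for SCC15 and 31055 for SCC25. Proteins of the FOS and JUN families pair through a leucine zipper into the AP-1 transcription factors, which bind DNA at the promoters and enhancers of genes of growth, stress, invasion and differentiation. FOS proteins bind DNA only in a pair with a JUN protein, while JUN proteins can also pair with each other, so the levels of the family members set which pairs can form. Immediate early genes are transcribed within minutes of a signal, without new protein synthesis, through factors already in the cell such as SRF with its ETS partners, CREB and AP-1 itself, and their transcripts are short-lived. In squamous epithelia AP-1 takes part in both keratinocyte differentiation and the invasive behaviour of carcinoma.

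SCC15 and SCC25 are human lines of head and neck squamous cell carcinoma, labelled as oral squamous cells of WT genotype. Each line was treated for 24 h with ACGs, the annonaceous acetogenins, given in the study's methods as the acetogenin squamocin at 10 µg/mL, or with the solvent DMSO as control. Each of the 4 groups held 3 libraries, and the labels do not say whether these came from separate cultures, so p-values measure the spread between these libraries. Each line stands for itself, since it is 1 established line, and only the level at 24 h was measured.

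Libraries held between 16665563 and 22748845 recovered reads. Normalized counts are reads divided by a size factor of the library, and they were set separately in each line, so levels are compared between treatments within a line and not between lines. The summed normalized counts were higher with ACGs than with DMSO, at a median of 20826159 against 15511759 in SCC15 and of 21182014 against 18272805 in SCC25. When libraries were instead scaled to equal totals, the median log2 fold change of all genes moved from 0.012 to -0.50 in SCC15 and from -0.015 to -0.23 in SCC25. Among the SCC15 libraries, ACGs replicate 3 stood apart from the other ACGs libraries, with a chi-square per degree of freedom of 71.6 and 63.5, where the other replicate pairs of the series lay between 1.72 and 11.0. Of 12 squamous epithelial markers, the summed level was 121196 to 127549 normalized counts with DMSO and 221828 to 380949 with ACGs in SCC15, and 37050 to 37326 against 67166 to 68496 in SCC25. In the SCC15 DMSO libraries KRT17, at 112298 ± 3086 normalized counts (SD, n = 3), made up most of that sum, and PERP was at 7917 ± 228, SFN at 2424 ± 80.3 and KRT14 at 759 ± 8.06. In the same libraries KRT5 was at 9.50 ± 4.04, TP63 at 17.5 ± 5.04, EPCAM at 11.4 ± 0.824, DSG3 at 1.44 ± 1.31 and DSC3 at 0.284 ± 0.492, while in SCC25 KRT5 was at 5627 ± 75.7. Markers of leukocytes, endothelium and fibroblasts summed to 904 to 977 normalized counts with DMSO and 565 to 572 with ACGs in SCC15, and to 870 to 960 against 1103 to 1275 in SCC25. In the SCC15 DMSO libraries the collagen genes COL3A1 and COL1A1 were at 445 ± 26.0 and 151 ± 10.1, PECAM1 at 166 ± 10.1 and DCN at 131 ± 11.97, and the pan-leukocyte marker PTPRC at 3.05 ± 1.19. The part of any of these differences in the results below was not tested, and in bulk RNA fewer cells of a kind and less RNA per cell cannot be told apart.

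The promoters of EGR1, FOS and FOSB are shown because EGR1 and FOS fell in both lines, FOSB split between them, and all hold the CArG box, the element bound by SRF through which serum and growth factors switch on immediate early genes. Of the 10 genes, 8 had a RefSeq promoter entry; FOSL1 and IER3 had none. In the 500 bases before the RefSeq start (build GRCh38, searched on both strands), EGR1 held 5 CArG boxes, FOS held 1 and FOSB held 1. FOSL2, JUN, JUNB, JUND and IER2 held 0, and 2.41% of 27305 promoters held at least 1. In the stretches below the CArG boxes are in capitals. The distal cluster of EGR1 lies at chr5:138464979-138465128, plus strand, from 500 to 351 bases before the start.
EGR1 distal: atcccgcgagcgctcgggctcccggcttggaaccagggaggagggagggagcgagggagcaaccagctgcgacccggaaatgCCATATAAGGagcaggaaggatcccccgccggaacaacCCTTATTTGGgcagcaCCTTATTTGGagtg
The proximal pair of EGR1 lies at chr5:138465329-138465428, plus strand, from 150 to 51 bases before the start.
EGR1 proximal: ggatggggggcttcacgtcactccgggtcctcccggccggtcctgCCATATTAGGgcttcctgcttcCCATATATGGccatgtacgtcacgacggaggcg
The single element of FOS lies at chr14:75278478-75278577, plus strand, from 350 to 251 bases before the start, and that of FOSB at chr19:45467646-45467745 in the same window.
FOS: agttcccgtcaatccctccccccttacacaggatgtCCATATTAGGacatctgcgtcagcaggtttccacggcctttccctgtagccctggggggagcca
FOSB: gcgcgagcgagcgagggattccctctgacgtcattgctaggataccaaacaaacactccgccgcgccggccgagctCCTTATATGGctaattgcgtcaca
The cAMP response element, TGACGTCA, was found in FOSB, 325 to 318 bases before the start, and in JUND, 200 to 193 bases before it, and 2.11% of all promoters held it. The ETS core CCGGAA was found 3 times in EGR1, and also in FOSB and IER2, against 20.1% of all promoters. The AP-1 site TGANTCA was found in none of the 8 windows, and in 12.1% of all promoters. The matches of these motifs did not overlap one another. A match describes letters and not a bound site, and a missing match says only that these letters are not in this window.

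Between treatments, the 10 genes did not move as a block. In SCC15, 6 of the 10 genes were called higher with ACGs, where 30.9% of the 15902 genes tested were called higher. A further 3 were called lower in SCC15, against 30.0% of all genes, and IER2 did not pass the test. In SCC25, 6 genes were called higher, against 38.3% of 16539 genes tested, and 4 were called lower, against 38.5%. The counts called lower are near the shares of all genes. Under equal library totals, 14.6% of all genes were called higher and 51.03% lower in SCC15, and 30.2% and 47.6% in SCC25, while the 10 genes then gave 6 higher and 3 lower in SCC15 and 5 and 4 in SCC25. A call means an adjusted p under 0.05 from limma on log2(normalized count + 1), adjusted over all genes tested in the line, and all fold changes below are on that scale. All 10 genes passed the minimum mean of 10 normalized counts in both lines, with at least 38 reads in any SCC15 library and 166 in any SCC25 library. The treated and control libraries did not overlap for any of the 10 genes in either line, as was so for 70.6% of all genes tested in SCC15 and 79.0% in SCC25. The median log2 fold change of the 10 was 1.06 in SCC15 and 0.55 in SCC25.

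Higher in both lines were 5 genes, FOSL1, JUN, JUNB, JUND and IER3, where 22.1% of the 14454 genes tested in both lines did so. FOS and EGR1 were lower in both, as were 18.6% of all genes. FOSB and FOSL2 were called in opposite directions in the 2 lines, as were 10.1% of all genes.

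**Figure D1:**
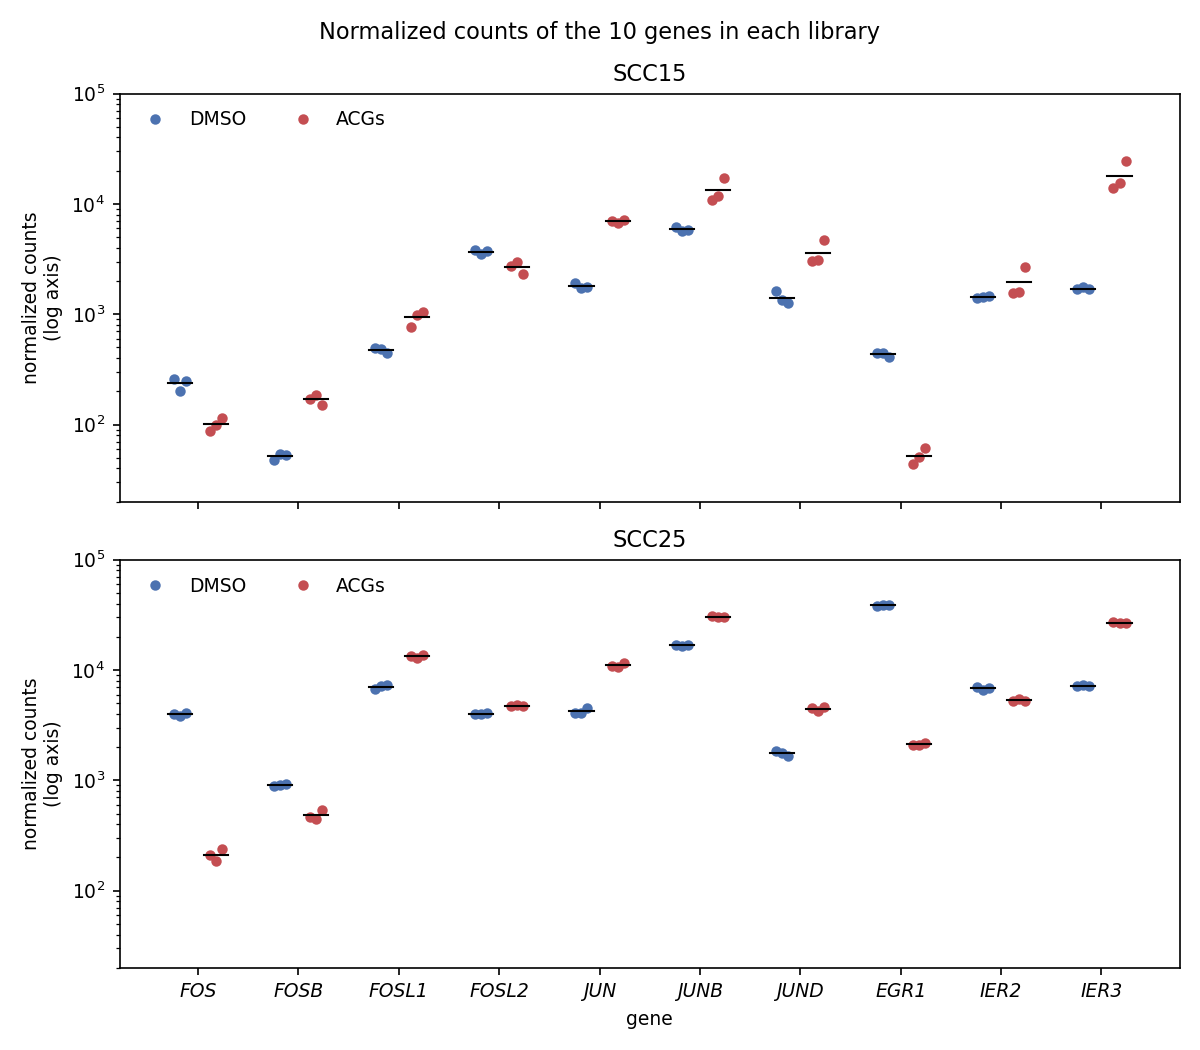
Normalized counts (log axis) of each of the 10 genes in the 3 DMSO libraries (blue) and the 3 ACGs libraries (red) of SCC15 (top) and SCC25 (bottom); black lines are means. EGR1 fell from 38765 to 2122 normalized counts in SCC25, and the SCC15 ACGs points of IER2 and IER3 are spread, with replicate 3 highest.

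FOS, the founding partner of JUN in AP-1, fell in both lines. In SCC15 it was at 261, 203 and 250 normalized counts with DMSO and at 88.1, 98.0 and 114 with ACGs. This was a log2 fold change of -1.24 ± 0.155 (SE, n = 3 per group, adjusted p = 0.000484). Every treated library lay under every control library. In SCC25 FOS stood at 4023, 3814 and 4048 with DMSO and at 211, 187 and 239 with ACGs, a log2 fold change of -4.22 ± 0.0785 (adjusted p = 3.24e-13). The control level was 18.7 times the treated one. The fall was steeper in SCC25, with a log2 contrast between the lines (SCC25 minus SCC15) of -2.98 ± 0.178 (adjusted p = 8.17e-08). The contrast was tested over the genes tested in both lines, of which 26.1% were called lower in SCC25 than in SCC15 and 26.0% higher. Of the 10 genes, 6 were called lower and 1 higher in that contrast.

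FOSB, the closest relative of FOS, went in opposite directions. In SCC15 it was scarce with DMSO, at 47.8, 54.6 and 53.3 normalized counts, and stood at 170.4, 187 and 151 with ACGs. That was 3.26-fold, with a log2 value of 1.68 ± 0.147 (adjusted p = 0.000104). In SCC25 it read 893, 908 and 935 with DMSO and 469, 448 and 537 with ACGs, a log2 fold change of -0.91 ± 0.0728 (adjusted p = 1.42e-07). The groups were apart in each line, upward in SCC15 and downward in SCC25, and the contrast between the lines was -2.60 ± 0.154 (adjusted p = 7.87e-08). The FOSB span lies wholly within that of ERCC1, a DNA repair gene on the other strand that reached 2084 normalized counts in SCC15 and 1298 in SCC25. Whether counting used the strand is not given in the sources used here, so reads of the overlap cannot be told apart.

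FOSL1, which encodes FRA-1, the FOS relative prominent in invasive carcinoma cells, rose in both lines. Its SCC15 libraries held 493, 485 and 447 normalized counts with DMSO and 773, 988 and 1053 with ACGs. On the log2 scale the change was 0.97 ± 0.130 (adjusted p = 0.000642), and 0.47 under equal totals (adjusted p = 0.00699). In SCC25 it was at 6771, 7094 and 7250 with DMSO and at 13316, 12913 and 13668 with ACGs, or 0.92 ± 0.0403 on the log2 scale (adjusted p = 5.39e-10). All treated libraries were above all controls. The contrast between the lines was -0.051 ± 0.139 (adjusted p = 0.778), an error that leaves room for a difference in either direction. The sign of this contrast changed under equal totals.

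FOSL2, which encodes FRA-2, moved least among the FOS family. In SCC15 it went from 3836, 3479 and 3760 normalized counts with DMSO to 2736, 2945 and 2314 with ACGs. On the log2 scale the change was -0.48 ± 0.110 (adjusted p = 0.00737). In SCC25 it went the other way, from 4005, 3970.4 and 4081 to 4708, 4797 and 4722, a log2 fold change of 0.24 ± 0.0374 (adjusted p = 7.64e-05). The groups were apart in both lines, but the SCC25 rise was 0.031 (adjusted p = 0.464) when libraries were scaled to equal totals. The contrast between the lines was 0.71 ± 0.117 (adjusted p = 0.000243). An antisense gene, FLJ31356, overlaps FOSL2, at up to 77.5 normalized counts in SCC15.

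All JUN family genes rose in both lines. JUN, the family member with the strongest transactivating activity, was at 1902, 1714 and 1779 normalized counts with DMSO and at 6981, 6684 and 7131 with ACGs in SCC15. The level was 3.85-fold that of the controls, or 1.95 ± 0.0834 on the log2 scale (adjusted p = 9.53e-06). In SCC25 it was at 4049, 4053 and 4573 with DMSO and at 10908, 10557 and 11574 with ACGs, or 1.38 ± 0.0533 on the log2 scale (adjusted p = 1.73e-10). Treated and control libraries were far apart in each line. The rise was smaller in SCC25 by a log2 contrast of -0.56 ± 0.104 (adjusted p = 0.000589), which was -0.27 (adjusted p = 0.0600) under equal totals.

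JUNB, which often restrains JUN-driven growth, had more counts than any other JUN family gene. In SCC15 it was at 6222, 5622 and 5796 normalized counts with DMSO and at 10848, 11892 and 17045 with ACGs. The log2 fold change was 1.15 ± 0.170 (adjusted p = 0.00102), and it was 0.95 without ACGs replicate 3 and 0.65 under equal totals. In SCC25 it went from 16712, 16541 and 16922 to 30991, 30512 and 30044, a log2 fold change of 0.87 ± 0.0346 (adjusted p = 2.32e-10). All treated libraries were above the controls, and the contrast between the lines was -0.28 ± 0.185 (adjusted p = 0.225). The sign of this contrast changed under equal totals. The JUNB span lies within that of HOOK2, a gene on the other strand at up to 607 normalized counts in SCC15 and 1580 in SCC25.

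JUND, the member usually expressed without a stimulus, rose in both lines, with close estimates under the scaling used. In SCC15 it was at 1616, 1331 and 1265 normalized counts with DMSO and at 3023, 3096 and 4653 with ACGs. The log2 fold change was 1.33 ± 0.182 (adjusted p = 0.000712), and it was 1.13 without ACGs replicate 3. In SCC25 it was at 1847, 1786 and 1677 with DMSO and at 4483, 4267 and 4590 with ACGs, again 1.33, with an SE of 0.0489 (adjusted p = 1.16e-10). The groups were apart in both lines. The contrast between the lines was -0.0038 ± 0.201 (adjusted p = 0.989), and its sign changed with the scaling and with the library left out. Under equal totals the log2 fold change was 0.84 in SCC15 and 1.12 in SCC25.

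EGR1, a zinc finger factor induced through SRF at its CArG boxes, gave the deepest fall in SCC15 and nearly the deepest in SCC25. In SCC15 it was at 446, 441 and 411 normalized counts with DMSO and at 44.05, 51.3 and 61.0 with ACGs. The log2 fold change was -3.04 ± 0.147 (adjusted p = 1.22e-05), the control level being 8.31 times the treated one. In SCC25, where EGR1 ranked highest of the 10 genes with DMSO, it went from 38385, 38710.1 and 39200.1 to 2102, 2086 and 2178. The log2 fold change was -4.19 ± 0.0363 (adjusted p = 7.35e-16), a fall of 18.3 times. The 3 treated libraries lay close together and far below the controls. The contrast between the lines was -1.15 ± 0.136 (adjusted p = 1.80e-05).

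IER2, a nuclear protein of the early response, changed little in either line. In SCC15 it was at 1413, 1445 and 1453 normalized counts with DMSO and at 1552, 1599 and 2693 with ACGs. The log2 fold change of 0.39 ± 0.202 did not pass the test (adjusted p = 0.130), although the groups did not overlap. Without ACGs replicate 3 it was 0.13 and passed (adjusted p = 0.0206), and under equal totals it was -0.11 (adjusted p = 0.539). In SCC25 it fell from 7040, 6603 and 6918 to 5265, 5503 and 5287, a log2 fold change of -0.36 ± 0.0404 (adjusted p = 4.00e-06). The contrast between the lines was -0.75 ± 0.220 (adjusted p = 0.0123).

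IER3, known as IEX-1, a stress-induced gene that modulates cell survival, had the strongest rise of the 10 genes in both lines. In SCC15 it went from 1684, 1747 and 1687 normalized counts with DMSO to 13800.3, 15395 and 24352 with ACGs. This 10.5-fold rise was 3.34 ± 0.200 on the log2 scale (adjusted p = 2.51e-05), and 3.09 without replicate 3. In SCC25 it went from 7130, 7276 and 7098 to 27203, 26531 and 26886, a log2 fold change of 1.91 ± 0.0346 (adjusted p = 2.78e-13). The treated libraries stood well above the controls in each line, and the contrast between them was -1.43 ± 0.217 (adjusted p = 0.000128). The antisense gene IER3-AS1 overlaps it, at no more than 7.20 normalized counts in any library.

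**Figure D2:**
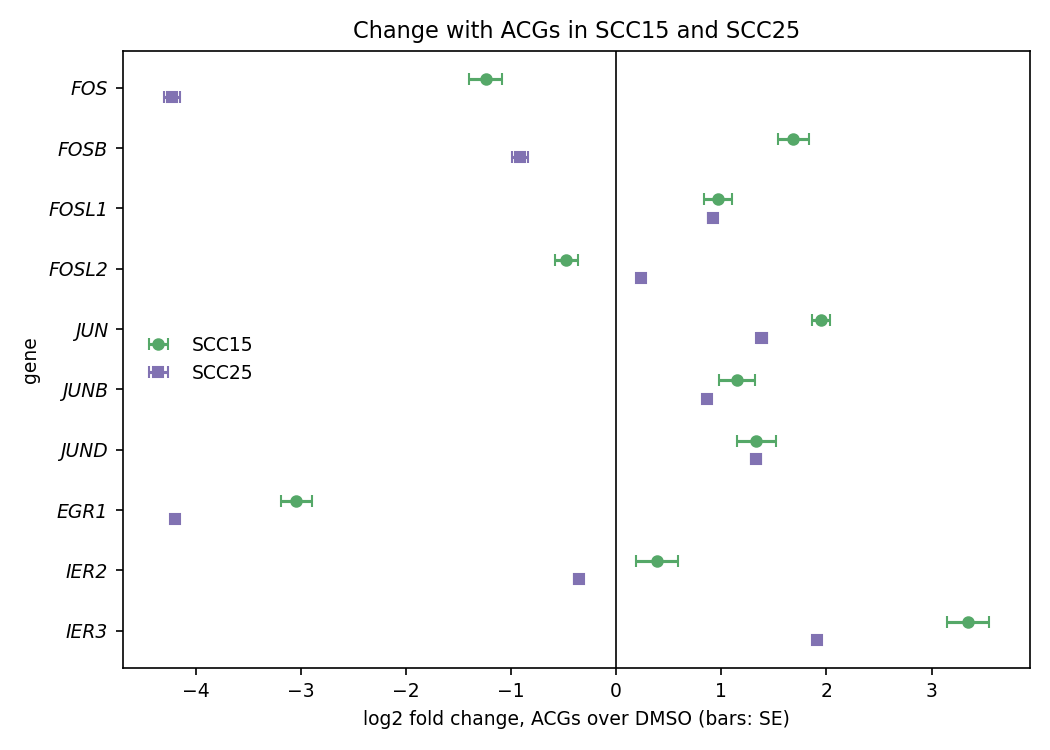
Log2 fold change of each gene, ACGs over DMSO, in SCC15 (circles) and SCC25 (squares), with SE as horizontal bars (3 libraries per group). FOS and EGR1 lie left of 0 in both lines, FOSB and FOSL2 lie on opposite sides, and the squares of IER3 and JUN are left of the circles.

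Compared per length, as normalized counts per kb of exon, the order of the 10 genes within a group changed with treatment. With DMSO in SCC15, JUNB was highest at 3213 ± 168 (SD, n = 3), and FOSB was lowest at 9.34 ± 0.648. With ACGs in SCC15, IER3 was highest at 13222 ± 4213 and EGR1 lowest at 16.6 ± 2.71. The ranges of neighbours in this order overlapped for FOSL2 and JUN with DMSO, and for JUN and JUND, IER2 and FOSL1, FOSL1 and FOSL2, and FOS and FOSB with ACGs. With DMSO in SCC25, EGR1 led at 12357 ± 131 per kb, followed by JUNB at 9139 ± 104. With ACGs in SCC25, IER3 led at 19906 ± 249 and JUNB followed at 16675 ± 259, while EGR1 ranked 7 at 676 ± 15.7 and FOS came last at 66.6 ± 8.09. Overlapping neighbours in SCC25 were FOS and JUN with DMSO, and EGR1 and FOSL2 with ACGs.

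The makeup of each family is a share within a library, so it does not depend on the size factor. In the FOS family, FOSL1 held a larger share with ACGs in both lines. In SCC25, FOS made up 21.8% ± 0.792 of the family's normalized counts per kb with DMSO and 0.846% ± 0.0802 with ACGs. FOSL1 went from 65.4% ± 0.944 to 89.6% ± 0.169 in the same libraries. FOSB and FOSL2 stood at 2.88% ± 0.00477 and 9.85% ± 0.165 with DMSO and at 1.11% ± 0.0781 and 8.43% ± 0.299 with ACGs, so FOSL1 was the main member of the SCC25 family with either treatment. In SCC15, where FOSL2 was the most abundant family member with DMSO, FOSL2 went from 60.5% ± 1.14 to 40.1% ± 5.43 and FOSL1 from 29.6% ± 1.80 to 53.2% ± 5.49. In SCC15 FOS went from 8.76% ± 0.816 to 3.38% ± 0.380, and FOSB from 1.10% ± 0.120 to 3.28% ± 0.376. No library of either treatment overlapped the other in these shares, and each had p = 0.1 by the exact two-sided permutation test, the smallest that 3 against 3 can give. Shares per kb depend on the annotated exon lengths. Without division by length the change of FOSL1 in SCC15 was 13.6 percentage points in place of 23.6, and that of FOS -2.72 in place of -5.38. The change of the FOSL2 share in SCC25 was -1.42 points per kb and turned slightly positive without division by length. Its direction there rests on the lengths. The sum of a family, unlike a share, depends on the size factor. For the FOS family it was 1.09 times the control in SCC15 (exact p = 0.2), but 0.776 times under equal totals and 0.869 times without division by length, so its direction in SCC15 rests on these choices. In SCC25 it was 1.38 times the control (exact p = 0.1), and 1.19 and 1.18 times by the same alternatives.

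In the JUN family the summed level was 2.48 times the control in SCC15 and 1.96 times in SCC25 (exact p = 0.1 each), or 1.74 and 1.70 times under equal totals. JUN went from 11.2% ± 0.179 to 17.8% ± 3.11 of the family in SCC15, and from 10.4% ± 0.615 to 13.8% ± 0.630 in SCC25. JUNB was the main member with either treatment, and its share went from 72.4% ± 1.02 to 65.4% ± 2.55 in SCC15 and from 81.4% ± 0.149 to 75.7% ± 0.956 in SCC25. The JUND share overlapped between treatments in SCC15, at 16.4% ± 1.20 and 16.8% ± 0.754 (exact p = 0.7), and was 8.18% ± 0.477 with DMSO and 10.5% ± 0.337 with ACGs in SCC25.

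**Figure D3:**
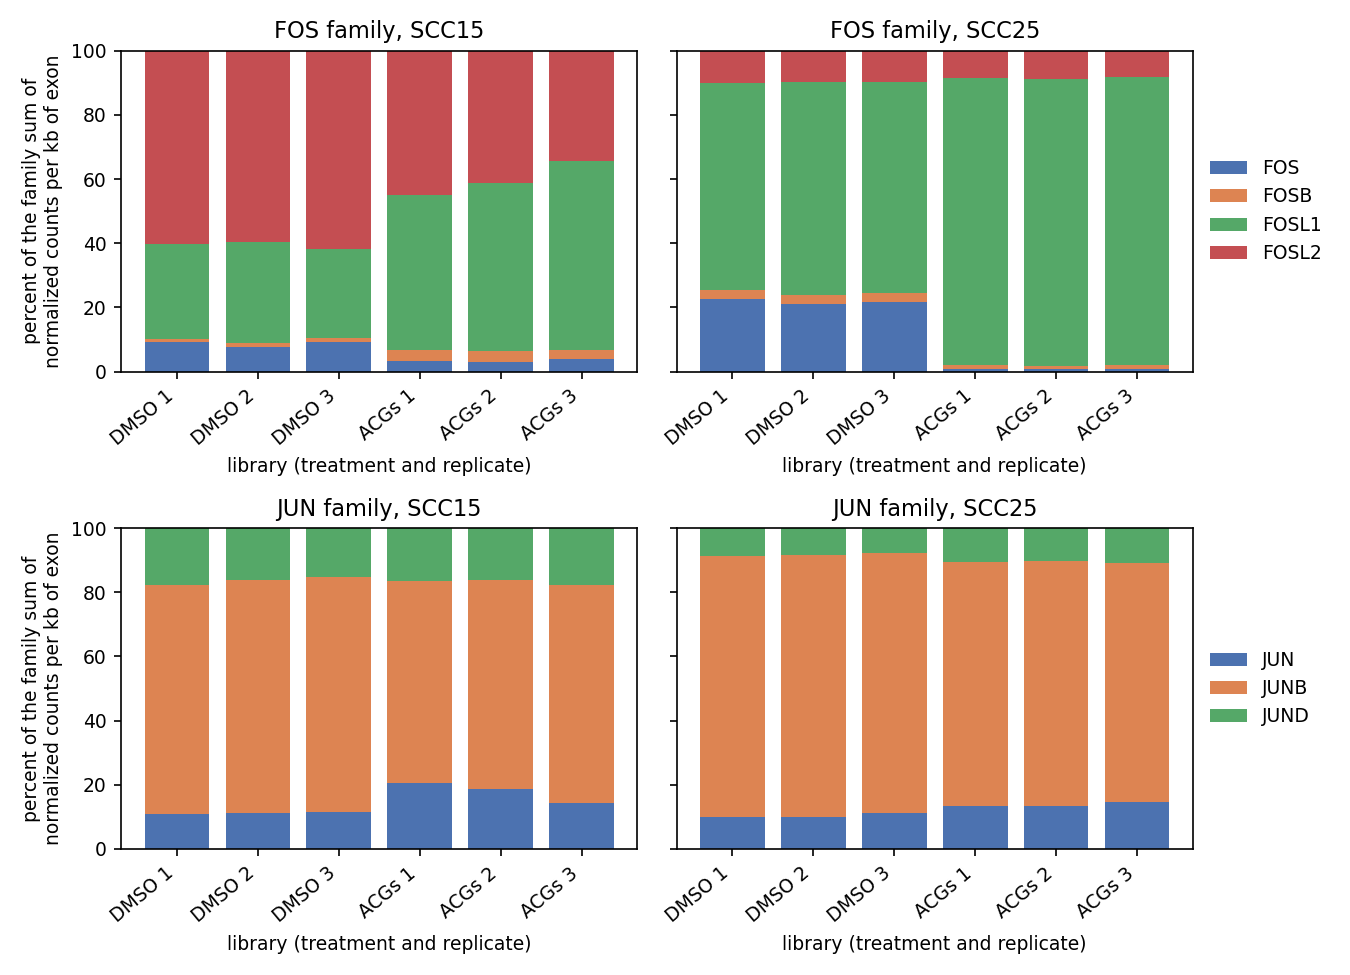
Share of each gene (percent) in the summed normalized counts per kb of exon of the FOS family (top) and the JUN family (bottom), for each library of SCC15 (left) and SCC25 (right). The FOSL1 band is wider with ACGs in both lines, the FOS band of SCC25 goes from 21.8% to 0.846%, and the JUN band is wider in both lines.

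Other leucine zipper proteins can replace a FOS or JUN partner, and 13 such genes of the ATF, BATF, MAF and CREB groups were looked at. Of 11 tested in SCC15, 6 were higher and 2 lower, against 30.9% and 30.0% of all genes. Their median log2 fold change was 0.67. Of 10 tested in SCC25, 6 were higher and 2 lower, against 38.3% and 38.5% of all genes, with a median of 0.79. Under equal totals the counts were 5 and 3 in SCC15 and 6 and 3 in SCC25. ATF3, a stress-induced repressor and JUN partner, rose from 1234 ± 39.5 to 3631 ± 173 normalized counts in SCC15 (log2 1.56, adjusted p = 1.50e-05) and from 701 ± 61.3 to 4075 ± 53.7 in SCC25 (log2 2.54, adjusted p = 2.49e-12). CREB5 rose from 26.6 ± 5.73 to 141 ± 34.7 in SCC15 and from 84.3 ± 9.09 to 613 ± 11.99 in SCC25. The small MAF protein gene MAFF rose in SCC15 from 660.2 ± 41.7 to 3377 ± 461. In SCC25 BATF2 fell from 156 ± 16.1 to 54.7 ± 2.62. Both were called in the same direction in the other line, MAFF at 0.78 in SCC25 and BATF2 at -0.68 in SCC15 on the log2 scale.

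Other immediate early genes were called in both directions too. Of 31 tested in SCC15, 19 were higher and 8 lower, where 30.9% and 30.0% of all genes were, with a median log2 fold change of 1.16. Of 32 tested in SCC25, 21 were higher and 10 lower, where 38.3% and 38.5% of all genes were, with a median of 0.68. The list was not tested against all genes or against the 10. DUSP1, a phosphatase that switches off MAP kinases, rose from 964 ± 63.1 to 8765 ± 651 normalized counts in SCC15 (log2 3.18, adjusted p = 3.20e-06). In SCC25 it rose from 1235 ± 10.8 to 28060 ± 278 (log2 4.50, adjusted p = 5.42e-16). ZFP36, whose protein speeds the decay of short-lived transcripts, rose in SCC15 from 691 ± 44.1 to 10101 ± 557. There the clock gene PER1 rose from 741 ± 49.2 to 8009 ± 1681. On the log2 scale ZFP36 rose by 3.87 in SCC15 and 1.96 in SCC25, and PER1 by 3.41 and 3.64. The EGR1 relatives EGR2 and EGR3 fell in SCC25, EGR2 from 375 ± 23.4 to 17.9 ± 4.80 (log2 -4.35, adjusted p = 5.57e-10) and EGR3 from 135 ± 18.2 to 10.2 ± 5.52 (log2 -3.71, adjusted p = 1.91e-07). In SCC15, EGR2 was at 1.38 ± 1.29 with DMSO and was not tested, and EGR3 was at 18.5 ± 4.69 and 20.8 ± 4.08 (adjusted p = 0.626), values looked up after those of SCC25 were seen. EGR4, another relative, was scarce and was called lower in both lines. It went from 17.8 ± 4.79 to 5.13 ± 1.46 in SCC15 (log2 -1.61, adjusted p = 0.00924). In SCC25 it went from 47.4 ± 6.87 to 11.0 ± 5.37 (log2 -2.13, adjusted p = 0.000159).

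**Figure D4:**
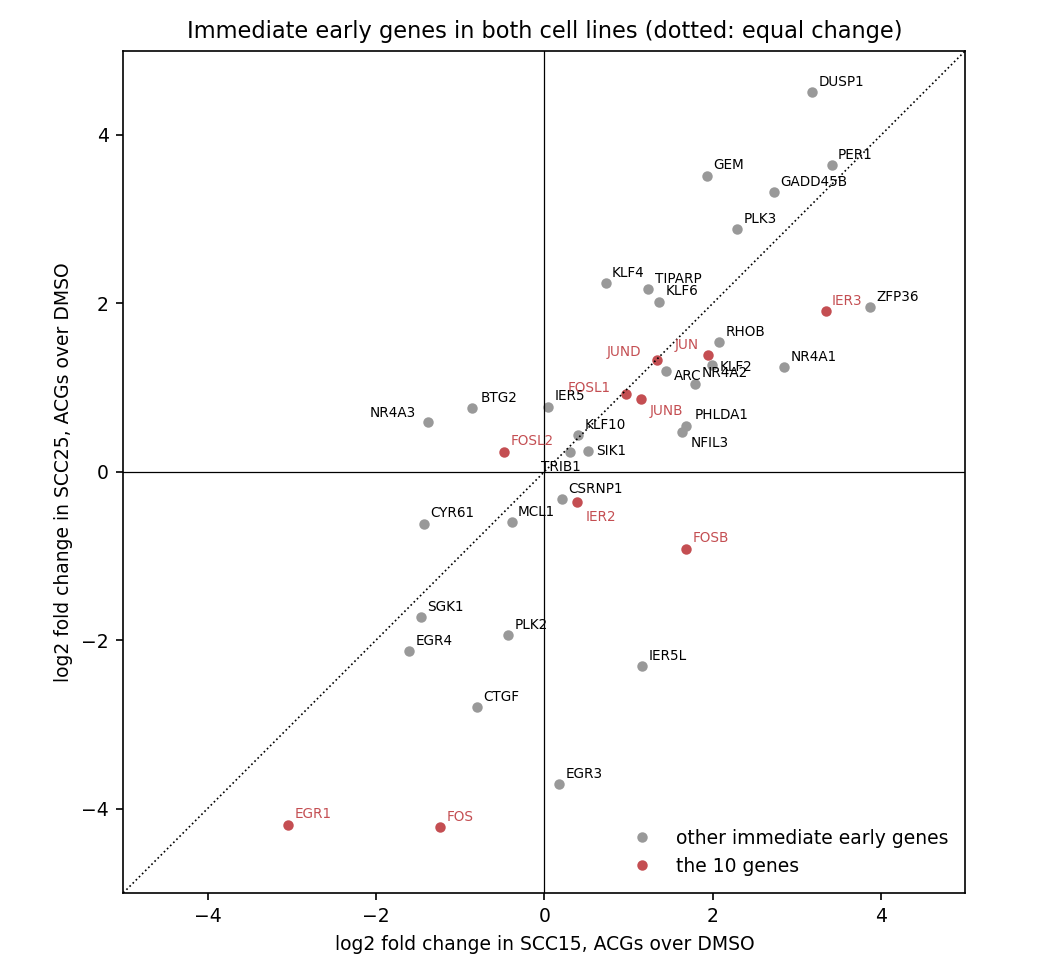
Log2 fold change with ACGs in SCC15 (x axis) and in SCC25 (y axis) of the 10 genes (red) and of 31 other immediate early genes tested in both lines (grey); the dotted line marks equal change. DUSP1, at 3.18 and 4.50, lies at the upper right with IER3 and ZFP36, EGR1 and FOS lie at the lower left, and FOSB is at the right below 0.

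Signalling to these genes runs through MAP kinases and through SRF, its cofactors, ETS factors and CREB. Of 23 of these genes tested in SCC15, 12 were higher and 5 lower, which became 6 and 11 under equal totals. Of 24 tested in SCC25, 11 were higher and 7 lower, which became 9 and 12. Before that rescaling, 30.9% of all genes were higher and 30.0% lower in SCC15, and 38.3% and 38.5% in SCC25. The direction of the listed genes as a set therefore rests on the scaling. MAP2K6, an activator of p38 kinases, fell from 75.7 ± 7.87 to 8.75 ± 3.42 normalized counts in SCC15 (log2 -3.03, adjusted p = 0.000181) and from 23.7 ± 5.22 to 4.32 ± 2.87 in SCC25 (log2 -2.40, adjusted p = 0.000872). MAP2K2 and MAPK11 rose in SCC15 by 1.13 and 1.10 on the log2 scale, and MAP2K3 and ELK3 rose in SCC25 by 1.21 and 1.17. In the other line MAPK11 (0.29), MAP2K3 (0.89) and ELK3 (0.35) were also called higher, and MAP2K2 (0.046) was not called.

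More of the genes commonly listed as AP-1 targets were called higher than lower. Of 19 tested in SCC15, 15 were higher and 3 lower, against 30.9% and 30.0% of all genes. Their median log2 fold change was 1.06. Of 22 tested in SCC25, 14 were higher and 7 lower, against 38.3% and 38.5% of all genes, with a median of 1.09. Under equal totals the counts were 12 and 3 in SCC15 and 13 and 7 in SCC25. This list was not tested against all genes. In SCC15 the collagenase gene MMP1 rose from 26.3 ± 5.51 to 317 ± 9.31 normalized counts (log2 3.56, adjusted p = 1.25e-05), the stromelysin gene MMP3 from 7.04 ± 2.02 to 55.5 ± 17.4, and the chemokine gene CXCL8 from 282 ± 13.1 to 2144 ± 571. In SCC25 the protease inhibitor gene SERPINB2 rose from 10.5 ± 3.25 to 399.5 ± 30.9 (log2 5.16, adjusted p = 3.01e-10). SERPINB2 also rose in SCC15, by 1.36 on the log2 scale. The cornified envelope genes SPRR1B and SPRR2A, called higher in SCC25, had few reads with DMSO, at 2.02 ± 0.557 and 1.07 ± 1.86 normalized counts, against 37.8 ± 17.0 and 19.4 ± 10.3 with ACGs. Looked up after the SCC15 values were seen, CXCL8 fell in SCC25 from 9725 ± 136 to 6014 ± 65.6 (adjusted p = 2.20e-09) and MMP1 was at 22.7 ± 5.09 and 31.2 ± 8.30 (adjusted p = 0.198). MMP3 was at 1.37 ± 1.66 and 0.347 ± 0.600 there and was not tested. Also called in opposite directions in SCC15 and SCC25 were IL6 (log2 -0.68 and 2.30), IL1A (0.88 and -0.51), IL1B (1.48 and -0.68) and HMGA1 (2.14 and -0.58). The other targets called in both lines kept their direction.

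Of genes whose proteins shorten or lengthen the life of AP-1 transcripts and proteins, 3 of 8 were higher and 1 lower in SCC15, where 30.9% and 30.0% of all genes were, with 0 higher and 4 lower under equal totals. In SCC25, 5 of 7 tested were higher and 1 lower, where 38.3% and 38.5% of all genes were. Under equal totals these counts were 4 and 2, beside 30.2% and 47.6% of all genes. ZFP36L2, a relative of ZFP36 that binds AU-rich transcripts, fell in SCC15 from 1789 ± 86.3 to 1435 ± 91.5 and rose in SCC25 from 1483 ± 60.6 to 2889 ± 84.4. ZFP36L1, of the same family, rose by 0.50 in SCC15 (adjusted p = 0.00525) and by 0.40 in SCC25 on the log2 scale. HNRNPD, another AU-rich binding protein, rose by 0.46 in SCC15 and by 0.57 in SCC25. ELAVL1, which encodes the stabilizing protein HuR, rose by 0.62 in SCC25 (adjusted p = 1.35e-07) and was not called in SCC15 (0.089).

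**Figure D5:**
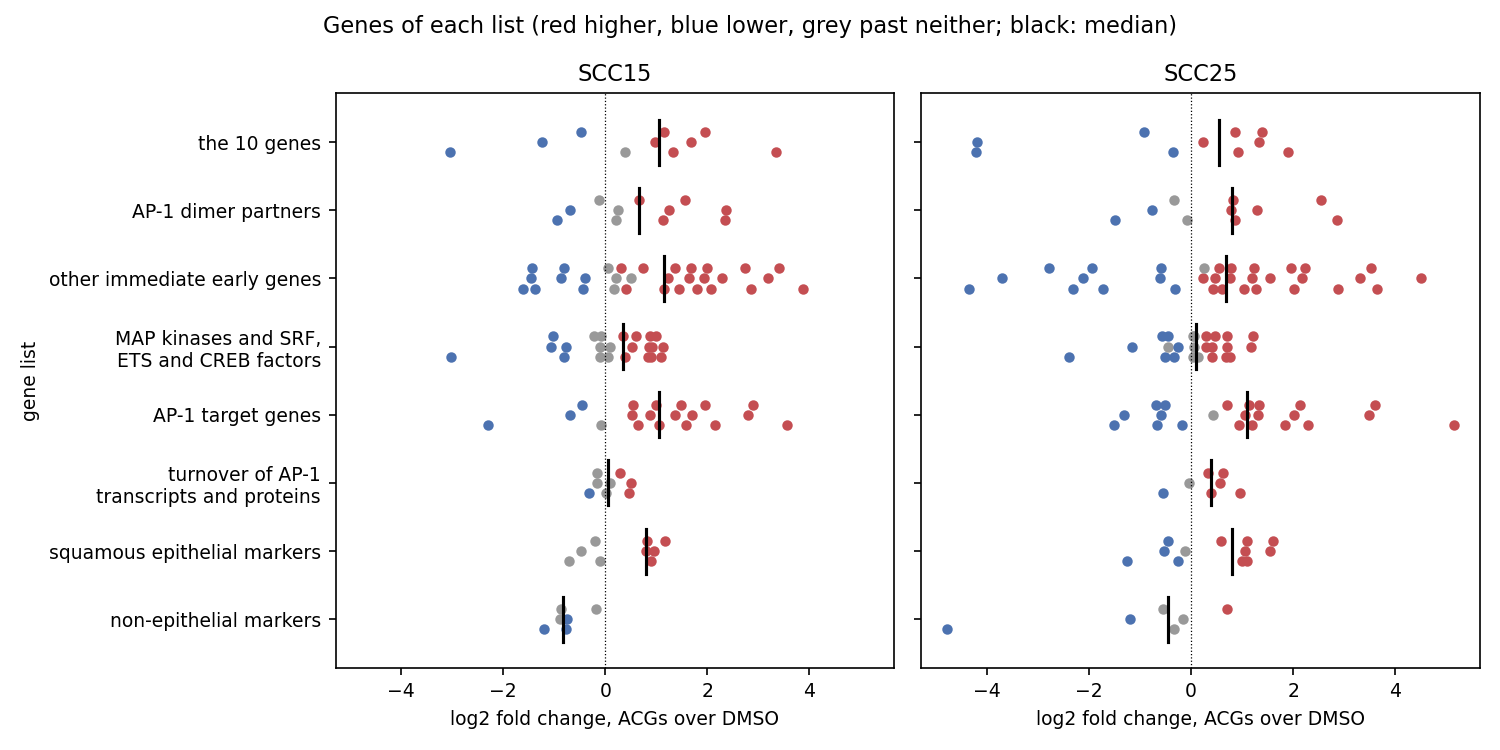
Log2 fold change, ACGs over DMSO, of each tested gene of the 10 genes and of each list in SCC15 (left) and SCC25 (right), with genes called higher in red, lower in blue and past neither in grey; black bars are medians. The other immediate early genes have medians of 1.16 and 0.68 and AP-1 target genes of 1.06 and 1.09, while non-epithelial markers lie mostly below 0.

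Of 9 squamous markers tested in SCC15, 5 were higher and 0 lower, against 30.9% and 30.0% of all genes. Of 12 tested in SCC25, 7 were higher and 4 lower, against 38.3% and 38.5%. Under equal totals the counts became 3 and 3 in SCC15 and 7 and 5 in SCC25. KRT17, a keratin of activated keratinocytes, rose from 112298 ± 3086 to 260258 ± 81897 normalized counts in SCC15 and from 6064 ± 178 to 18369 ± 801 in SCC25. KRT14 rose by 0.89 in SCC15 and 1.06 in SCC25 on the log2 scale, and SFN by 0.82 and 1.55. The desmosomal gene PKP1 rose by 0.95 in SCC15 and fell by 1.25 in SCC25. Also called lower in SCC25 were DSC3, CDH1 and KRT5, at -0.53, -0.46 and -0.25. Of 6 non-epithelial markers tested in each line, 0 were higher and 3 lower in SCC15. In SCC25, 1 was higher and 2 lower. The shares of all genes on this scale and under equal totals are those given above for each line. Under equal totals the counts of these markers were 0 and 5 in SCC15 and 1 and 3 in SCC25. In SCC15 the endothelial marker PECAM1 fell by 1.19 on the log2 scale, COL3A1 by 0.78 and DCN by 0.76. In SCC25 PECAM1 was at 75.3 ± 9.47 normalized counts with DMSO and 2.38 ± 2.08 with ACGs, VWF fell by 1.20 on the log2 scale and COL1A1 rose by 0.70.

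By the Pearson correlation over the 12 libraries of the log2 level minus the mean of the line's DMSO libraries, 3 genes were named as most like FOS, FOSL1, JUN and EGR1 among 9697 protein-coding genes. The libraries fall into 2 control groups near 0 and 2 treated groups, so the values describe the relative size of the changes in the 2 lines and carry no p. Most like FOS were EPHB4, NCOA7 and MCM3 (r = 0.997 each), whose log2 fold changes were below 0 in both lines and further from it in SCC25. MCM3, a subunit of the replicative helicase, had log2 fold changes of -0.70 and -2.68. Most like EGR1 were C1RL, CANT1 and PHF23 (r = 0.997 each). Most like FOSL1 were NINJ1 (r = 0.992), H3F3B and CITED4 (r = 0.990 each), whose log2 fold changes were close in both lines. Most like JUN were the kinase gene PIM1 (r = 0.998), NFKB2 (r = 0.996) and HSPA5 (r = 0.996), the chaperone BiP of the endoplasmic reticulum, whose log2 fold changes were 3.70 and 2.88 in SCC15 and SCC25. For pairs of the 10 genes, r was 0.982 between JUN and IER3, 0.981 between FOSL1 and JUND, and -0.932 between FOSL1 and EGR1.

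The calls of genes with a CArG box in the promoter were counted as a description, with no test. Of 236 tested genes with such a promoter in SCC15, 32.6% were called higher and 34.3% lower, against 31.7% and 31.2% of the genes with any promoter entry, these included. In SCC25 the shares were 42.1% and 34.1% of 252 genes, against 39.5% and 39.8%. EGR1, FOS and FOSB, whose elements are printed above, are among these genes.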

How the data were processed

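RNA of SCC15 and SCC25 cells was sequenced in 12 libraries, 3 for each line and treatment, from total RNA with a NEBNext Ultra kit. Per the submitters' processing notes, the authors aligned reads to GRCh38 with HISAT2 2.0.5 and counted them per gene with featureCounts 1.5.0-p3. The deposited signal is this count after division by a size factor, set apart for each line, although the header of the SCC25 columns calls it FPKM. Reads were recovered as whole numbers for 100% of values (tolerance 0.01). The deposited group means, fold changes and p-values of the authors' own comparison were not used.

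Here, log2(normalized count + 1) was tested, for genes whose mean reached 10, with limma 3.58.1 (two-sided, Benjamini-Hochberg), within each line and as a contrast between lines. The test was tried on simulated data. Exon lengths came from GENCODE release 44, promoters from RefSeq and the GRCh38 genome. Named were all 10 genes, the 3 with the largest change past the threshold without overlap from each list and line, and the 3 genes most like each of FOS, FOSL1, JUN and EGR1. Further markers, EGR4, some AP-1 targets and values of some named genes in the other line were given besides. The genes and lists were chosen with earlier results of these data known, and the motif windows after values were seen. Alternatives were another pseudocount (0.1 or 10), other filters, TMM scaling, equal totals, edgeR and DESeq2 on the recovered reads, a replicate block and each library left out. The reads carry no molecular identifiers.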

Additional observations from a re-analysis of the deposited data

Results flagged for a closer look

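In 7 of the 10 genes the effect of ACGs differed between the lines by the contrast of SCC25 minus SCC15 in limma. Over all 14454 genes tested in both lines, 26.0% were called higher and 26.1% lower by that contrast. The differences on the log2 scale were -2.98 for FOS, -2.60 for FOSB, -1.43 for IER3, -1.15 for EGR1, -0.75 for IER2, -0.56 for JUN and 0.71 for FOSL2. The signs of the effects themselves were opposite for FOSB, FOSL2 and IER2, and the SCC15 effect of IER2 did not pass its own test. The contrast of JUN was not past the threshold under equal totals. The cause of these differences was not tested. Single values within groups of 3 libraries were not tested as outliers by Dixon's rule.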

How the results depend on the processing

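Of the alternatives for single genes, 495 values kept their direction and side of the threshold. Another 12 reversed direction, 2 lost the threshold and 1 gained it. Of the counts, 201 stayed within 1.5 times and 3 did not. Of the family shares, 85 values stayed within the spread, 10 moved beyond it and 3 reversed. For the family sums these were 25, 5 and 2. Under equal library totals, all genes called in SCC15 were 2336 higher and 8179 lower (22.2% of calls higher, against 50.8% as reported), those in SCC25 5022 and 7900 (38.9%, against 49.9%), and those of the contrast between lines 5472 and 2396 (69.5%, against 49.9%). There IER2 in SCC15 was -0.11, FOSL2 in SCC25 0.031, and the contrasts of FOSL1, JUNB, JUND and JUN were 0.24, 0.011, 0.29 and -0.27. The contrast of JUND was 0.034 with TMM scaling. With counts recovered from the signal, edgeR gave 5074 higher and 4757 lower genes in SCC15 and 6413 and 6384 in SCC25, while DESeq2 gave 5185 and 4778, and 6142 and 6041. When single libraries were dropped, the contrast of JUND ranged from -0.11 to 0.20 and that of FOSL1 from -0.18 to 0.038, while IER2 in SCC15 ranged from 0.13 to 0.53. Without SCC15 ACGs replicate 3, 7 of the 10 genes were higher in SCC15 and 3 lower, with 6086 of all genes higher and 6022 lower. The change of the JUND share in SCC15 ranged from -0.15 to 1.05 percentage points with a library left out. The FOS family sum in SCC15, 1.09 times the control, was 0.776 times under equal totals and 0.869 times without division by length, alternatives added after seeing the data.

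With reads not divided by length, the changes in family shares were 9.87 (JUN), -0.44 (JUND), -2.72 (FOS), 3.20 (FOSB), 13.6 (FOSL1) and -14.1 (FOSL2) percentage points in SCC15, and 5.37 (JUN), -7.24 (JUNB), -23.7 (FOS), -3.14 (FOSB), 26.8 (FOSL1) and 0.088 (FOSL2) in SCC25, since the genes differ in length. The signs of JUND in SCC15 and FOSL2 in SCC25 were opposite to those per kb, 0.43 and -1.42. The main fit paired no libraries. Deviations of same-numbered libraries correlated at -0.051 to 0.0078, and those of differently numbered ones at -0.040 to 0.049. These small values cannot show whether libraries were paired in the experiment, which the labels do not say. A replicate block changed no call of the 10 genes and gave 4665 higher and 4451 lower genes in SCC15, 6294 and 6317 in SCC25, and 3525 and 3564 in the contrast. The causes of these shifts were not tested. With 3 libraries a group, no shares could pass a threshold of 0.05 by the exact test.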
